A study of Mus musculus with 52 samples.

Results

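The photoreceptor genes described here were 9 genes chosen by name: Gnat1, Pde6b, Sag, Rcvrn, Nrl, Crx, Opn1sw, Opn1mw and Arr3. All 9 were listed in eyes, out of 28210 genes listed there and 39144 genes listed in any tissue of the series. In eyes of mice without Tug1, the mean level of each of the 9 was lower than in wild-type eyes, by 9.3% (Gnat1) to 31.5% (Opn1sw). No member was past a 1.5-fold difference, which 4.68% of the 19709 genes at 1 TPM or more in eyes passed toward lower levels. A lower mean of any size was found in 72.3% of the same genes, so the size of each difference is given beside that background.

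Rods and cones are the light-sensing neurons of the retina. In both, an opsin catches light and activates the G protein transducin, which switches on a phosphodiesterase that breaks down cyclic GMP and so closes channels in the outer segment. Arrestin ends the response by binding the activated opsin, and recoverin, a calcium sensor, restrains the kinase that prepares the opsin for arrestin. The transcription factor CRX drives photoreceptor genes in both cell types, and NRL sets the rod fate. The mouse retina is dominated by rods, and mouse cones use an opsin for short wavelengths, an opsin for middle wavelengths, or both.

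RNA sequencing of polyadenylated RNA compared wild-type male mice with male mice homozygous for the Tug1_tm1.1Vlcg allele (Tug1-/-), both on a mixed background labelled C57BL/6J/129S6, given as N3-C57BL/6J with no Neo cassette in both genotypes of every tissue but testes. The allele is a germline deletion, carried by every cell of the animal: it keeps the Tug1 promoter and exon 1, and lacZ is read from that promoter in place of the rest of the gene. Eyes and heart, spleen and liver, and embryonic fibroblasts in culture (MEFs) came from 3 samples per genotype, prostate from 3 wild-type and 2 Tug1-/- samples, and testes from 4 wild-type, 4 Tug1-/- and 3 rescue samples, the last being Tug1-/- with a Tug1 transgene, tg(Tug1), that doxycycline induces through CAGs-rtTA3. In testes the labels name a Neo cassette in Tug1-/- and rescue animals and none in wild type. The brain comparison came from libraries outside the 52 samples of the series, which the labels do not describe, and the 6 samples of F1 hybrid testes were not analysed here. The age of the adult animals is not given in the labels.

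The labels give the tissue as eye and name no dissection, and transcripts of retina, lens, cornea and eye muscle were all found in it. In such bulk RNA, fewer cells of a type and less RNA per cell cannot be told apart. The values are the authors' mean per genotype in TPM, a share of all transcripts that is corrected for gene length and scaled to a total of 1000000 per library, so that levels of different genes can be compared. The levels used are group means without values of single samples, and the authors' own comparison statistics, deposited beside them, were not used. No standard deviation or test is therefore given for any difference below, and none was held against the spread between animals. The mean size-adjusted read total per library was 48341823 reads in eyes, the highest of the 7 tissues outside testes, and 17573743 reads in brain, the lowest. Tug1 itself, which checks the labels, had a mean of 57.5 TPM in wild-type eyes and 0.235 TPM in Tug1-/- eyes. In the other 6 tissues outside testes it had at least 10.1 TPM in wild type against at most 0.237 TPM in Tug1-/-. In testes Tug1 had 40.1 TPM in wild type, 0.885 TPM in Tug1-/- and 1.60 TPM in rescue samples.

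The promoters of the members are shown because CRX and NRL, both members, are known to bind promoters of rod and cone genes. RefSeq promoter sequences (GRCm38.p6) matched 7 of the 9 members; Gnat1 and Rcvrn were not among them. The 250 bases before each RefSeq start were searched on both strands for TAATCN, the core that CRX recognises, and for TGCTGA, a core of NRL and other MAF proteins. The last 120 bases before the start are printed 5′ to 3′ on the strand of the gene, with capitals marking the matches that lie inside them, and GGATTA being TAATCC read on the other strand.

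Sag, chr1:87803560-87803679, plus strand: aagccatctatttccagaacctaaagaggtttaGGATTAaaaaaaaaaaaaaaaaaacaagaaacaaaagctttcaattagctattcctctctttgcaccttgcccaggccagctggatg
Pde6b, chr5:108388253-108388372, plus strand: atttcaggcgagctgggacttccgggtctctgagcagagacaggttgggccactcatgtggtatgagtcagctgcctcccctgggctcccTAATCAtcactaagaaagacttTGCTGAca
Crx, chr7:15879956-15880075, minus strand: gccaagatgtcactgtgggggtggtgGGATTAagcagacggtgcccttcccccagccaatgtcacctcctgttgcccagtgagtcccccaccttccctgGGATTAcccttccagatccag
Opn1sw, chr6:29380514-29380633, minus strand: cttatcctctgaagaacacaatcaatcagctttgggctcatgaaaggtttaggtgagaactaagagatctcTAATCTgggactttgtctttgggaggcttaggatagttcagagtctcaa
Arr3, chrX:100605377-100605496, plus strand: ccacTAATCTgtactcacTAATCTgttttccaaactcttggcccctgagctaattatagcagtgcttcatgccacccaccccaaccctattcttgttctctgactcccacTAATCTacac

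TAATCN occurred in 5 of the 7 member promoters (Sag, Pde6b, Opn1sw, Crx and Arr3) and in 19.8% of the 32851 promoters of the same length in the RefSeq table. Its form TAATCC occurred in 2 of the 7 (Sag and Crx) and in 6.25% of all promoters. Arr3 held 3 matches to TAATCN, at 116, 102 and 10 bases before the start, and Crx held 2, at 94 and 21 bases. TGCTGA occurred in 3 of the 7 (Sag, Pde6b and Opn1sw) and in 16.1% of all promoters. In Sag and Opn1sw it lay 187 and 199 bases before the start, outside the printed stretch, as did another TAATCN of Sag at 178 bases. The promoters of Nrl and Opn1mw held neither motif in this window. The RefSeq starts of Opn1sw, Nrl and Crx used here lie inside the spans that the deposited table lists for these genes, which reach further upstream, so sequence before the outer limit of the span was not searched for Opn1sw and Nrl. These matches describe letters in the sequence and were not tested as binding sites.

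The 3 rod genes of the transduction cascade, Gnat1, Pde6b and Sag, were among the 4 most abundant members. Gnat1 encodes the alpha subunit of rod transducin and lies on chromosome 9 (bases 107674474 to 107679712, minus strand, GRCm38). Its authors' mean in eyes was 9815 TPM in wild type against 8902 TPM in Tug1-/-, a log2 ratio (Tug1-/- over wild type, each mean plus 0.1 TPM) of -0.14. Pde6b, the beta subunit of the rod phosphodiesterase (chromosome 5, bases 108388391 to 108432397, plus strand), had 1095 TPM in wild type against 947 TPM in Tug1-/-, a log2 ratio of -0.21. Sag, the rod arrestin (chromosome 1, bases 87803680 to 87845158, plus strand), had 1078 TPM and 919 TPM, a log2 ratio of -0.23. Pde6b and Sag lay close together at both genotypes, and Gnat1 lay far above both.

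Rcvrn, which encodes recoverin of rods and cones, is on chromosome 11 (bases 67695326 to 67703333, plus strand). Its mean was 1875 TPM in wild type against 1644 TPM in Tug1-/-, a log2 ratio of -0.19. In the GENCODE vM21 annotation the whole of Rcvrn lies within Glp2r, a receptor gene on the opposite strand, and the sources used here do not say if the counting used strand.

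The 3 cone genes were the least abundant members and differed most among themselves. Opn1sw, the short-wavelength cone opsin (chromosome 6, bases 29376671 to 29388468, minus strand), had 343 TPM in wild type against 235 TPM in Tug1-/-, a log2 ratio of -0.55. It had the lowest ratio of the 9, and 5.41% of all genes at 1 TPM or more in eyes had a lower ratio still. Arr3, the cone arrestin (chromosome X, bases 100605497 to 100618493, plus strand), had 269 TPM and 221 TPM, a log2 ratio of -0.28. Opn1mw, the middle-wavelength cone opsin (chromosome X, bases 74127464 to 74150760, plus strand), had 165 TPM and 150 TPM (149.7), a log2 ratio of -0.14. The opsins thus lay at either end of the members' range, with Opn1mw beside Gnat1 and Opn1sw apart from the other 8.

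Among the transcription factors, Crx (chromosome 7, bases 15865947 to 15879968, minus strand) had 813 TPM in wild type against 666 TPM in Tug1-/-, a log2 ratio of -0.29. Nrl, the rod determinant (chromosome 14, bases 55518978 to 55524981, minus strand), had 661 TPM and 589 TPM, a log2 ratio of -0.16. Crx and Arr3 (-0.28) were next to Opn1sw in the size of the difference, and lay closer together than the counting error of either. Nrl was among the members with the smallest.

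The order of the 9 levels was the same in both genotypes: Gnat1, Rcvrn, Pde6b, Sag, Crx, Nrl, Opn1sw, Arr3, Opn1mw. Pde6b and Sag, which are neighbours in this order, differed by less than the gap between genotypes in either gene. The 9 genes together made up 1.61% of all transcripts in wild-type eyes (16114 TPM) and 1.43% in Tug1-/- eyes (14273 TPM), which is 88.6% of the wild-type sum.

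**Figure D1:**
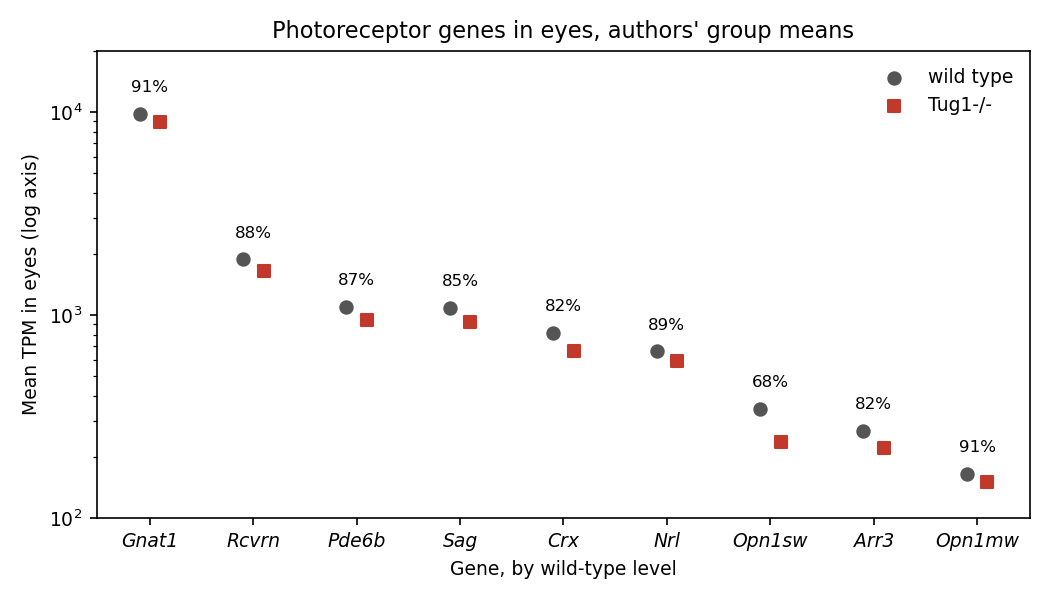
Authors' mean TPM of the 9 photoreceptor genes in eyes, on a log axis, in wild-type eyes (circles) and Tug1-/- eyes (squares), ordered by wild-type level. The printed percentage is the Tug1-/- mean as a share of the wild-type mean, from 68.5% for Opn1sw to 90.7% for Gnat1; no error bar can be drawn because the values are group means.

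An approximate 95% interval from read counts alone, taking the 6 eye libraries together, reached 0.0037 (Gnat1) to 0.040 (Opn1mw) on either side of the log2 ratio, and 0.023 for Opn1sw. It covers counting error only and says nothing of how eyes of the same genotype differ.

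A lower mean in Tug1-/- eyes was common. The background was the 19709 genes whose mean reached 1 TPM in wild type or Tug1-/-, 72.3% of which had a lower mean in Tug1-/-, and the median log2 ratio over all of them was -0.11. The 9 members had a median of -0.21, and all 9 were below the median of all genes, Opn1mw by less than its counting error. Past 1.5-fold, 4.68% of all genes were lower and 3.19% were higher, against 0 of the 9 members in either direction. A Tug1-/- mean under 80% of the wild-type mean was found in 14.9% of all genes and in 1 member, Opn1sw. Taken relative to the median of all genes, Gnat1 and Opn1mw were each lower by 0.03 on the log2 scale, Crx and Arr3 each by 0.18, and Opn1sw by 0.44.

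**Figure D2:**
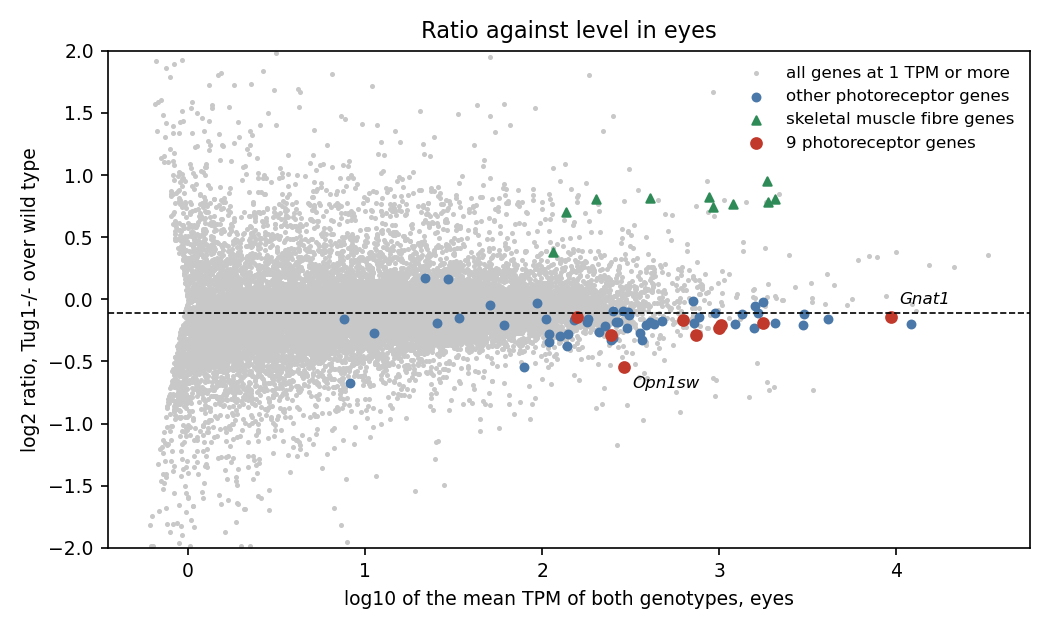
Log2 ratio of mean TPM (Tug1-/- over wild type) against log10 of the mean TPM of both genotypes for genes at 1 TPM or more in eyes; the dashed line is the median of all genes (-0.11), and 76 genes past 2 on either side of 0 are outside the plot. The 9 photoreceptor genes (red) lie below the line with Opn1sw the lowest of them, among the other photoreceptor genes (blue), and the 10 skeletal muscle fibre genes (triangles) lie above 0.

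Ratios between genes within a genotype, which do not change when a group mean is rescaled as a whole, were compared next. The ratio of Opn1mw to Opn1sw was 0.481 in wild-type eyes and 0.636 in Tug1-/- eyes. That of Sag to Arr3, the rod and cone arrestins, was 4.01 in wild type and 4.16 in Tug1-/-. Gnat1 over Gnat2, the rod and cone transducins, was 63.3 in wild type and 74.3 in Tug1-/-. Pde6b over Pde6c, the rod and cone phosphodiesterases, was 11.7 in wild type and 14.8 in Tug1-/-. Pde6b over its partner in the rod enzyme, Pde6a, differed little, with 0.649 in wild type and 0.660 in Tug1-/-. Nrl over Crx was 0.812 in wild type and 0.886 in Tug1-/-. The Opn1mw, Sag and Gnat1 ratios were planned, while those of Pde6b and Nrl were not in the plan.

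Among all genes at 1 TPM or more in eyes, 72.3% had a lower mean, 4.68% were past 1.5-fold lower and 3.19% higher. These shares are the background of each list below. Of 16 further genes of the rod cascade, all 16 had a lower mean in Tug1-/- eyes and 0 were past 1.5-fold. Their median log2 ratio was -0.19. The lowest ratio was that of Gucy2f, a guanylate cyclase that restores cyclic GMP, with 120 TPM (119.7) in wild type against 98.6 TPM in Tug1-/-, a log2 ratio of -0.28. Gngt1, the gamma subunit of rod transducin, had the highest, with 711 and 704 TPM, a log2 ratio of -0.01.

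The partners of one protein complex were not at one ratio. Of the rod transducin subunits, alpha (Gnat1) was at -0.14, beta (Gnb1, 3188 and 2769 TPM) at -0.20 and gamma (Gngt1) at -0.01 on the log2 scale. Which cells of the eye the Gnb1 transcripts came from was not tested. Of the rod phosphodiesterase subunits, Pde6a was at -0.23, Pde6b at -0.21 and the inhibitory Pde6g, with 1723 TPM in wild type against 1592 TPM in Tug1-/-, at -0.11.

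Of 8 further genes of the cone cascade, 7 had a lower mean in Tug1-/- eyes and 0 were past 1.5-fold, with a median log2 ratio of -0.23. The lowest was Pde6c, the catalytic subunit of the cone phosphodiesterase, with 93.7 TPM in wild type against 64.2 TPM in Tug1-/-, a log2 ratio of -0.55 that equals the one of Opn1sw to 2 decimals. Gnat2 had 155 TPM and 120 TPM (119.8), a log2 ratio of -0.37. The inhibitory subunit Pde6h was the exception, with 27.9 TPM in wild type against 31.2 TPM in Tug1-/-, a log2 ratio of 0.16. The further genes of the cone list thus ran from -0.55 to 0.16, against -0.28 to -0.01 in the rod list. Whether each listed gene is confined to rods or to cones was not tested.

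Of 18 genes of the outer segment and its upkeep, all 18 had a lower mean in Tug1-/- eyes, 0 were past 1.5-fold, and the median log2 ratio was -0.19. They ran from Mak, a kinase of the photoreceptor cilium (122 TPM and 96.3 TPM, log2 ratio -0.34), to Rp1l1, a protein of the axoneme (259 TPM and 243 TPM, log2 ratio -0.09). Of 10 further regulators of photoreceptors, 9 had a lower mean, with a median of -0.16. Prdm1, a factor that favours photoreceptor over bipolar fate in development, was past 1.5-fold, at 10.1 TPM in wild type against 6.33 TPM in Tug1-/-, a log2 ratio of -0.67. Rxrg, a nuclear receptor of cones, had the highest ratio, with 20.6 TPM and 23.2 TPM, a log2 ratio of 0.17. In the 4 lists together, 50 of 52 genes had a lower mean, against 72.3% of all genes, and 42 of 52 were below the median of all genes.

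Genes of the other retinal neurons also had lower means, as did 72.3% of all genes. Of 10 bipolar cell genes all 10 were lower, with a median log2 ratio of -0.26, and Vsx1, a factor of cone bipolar cells, was past 1.5-fold with 23.1 TPM in wild type against 15.2 TPM in Tug1-/- (log2 ratio -0.59). The highest of them was Cabp5, a calcium-binding protein, at -0.06. Of 11 amacrine and horizontal cell genes all 11 were lower, with a median of -0.25 and a range from Tfap2a (-0.38) to Lhx1 (-0.04). Of 9 ganglion cell genes 8 were lower, with a median of -0.14 and a range from Pou4f2 (-0.37) to Sncg (0.03). The 9 photoreceptor genes, at -0.21, lay between these medians.

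The supporting tissues stood elsewhere, again beside 72.3% of all genes with a lower mean. Müller glia genes, 5 of 9 of them lower, had a median log2 ratio of -0.07, from Sox9 (-0.16) to Gfap (0.22). Genes of the pigment epithelium and of melanin, 5 of 10 lower, had a median of -0.01, from Pmel (-0.18) to Best1 (0.16). Retinal photoreceptor and pigment epithelium genes were thus at different medians within the same eyes.

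**Figure D3:**
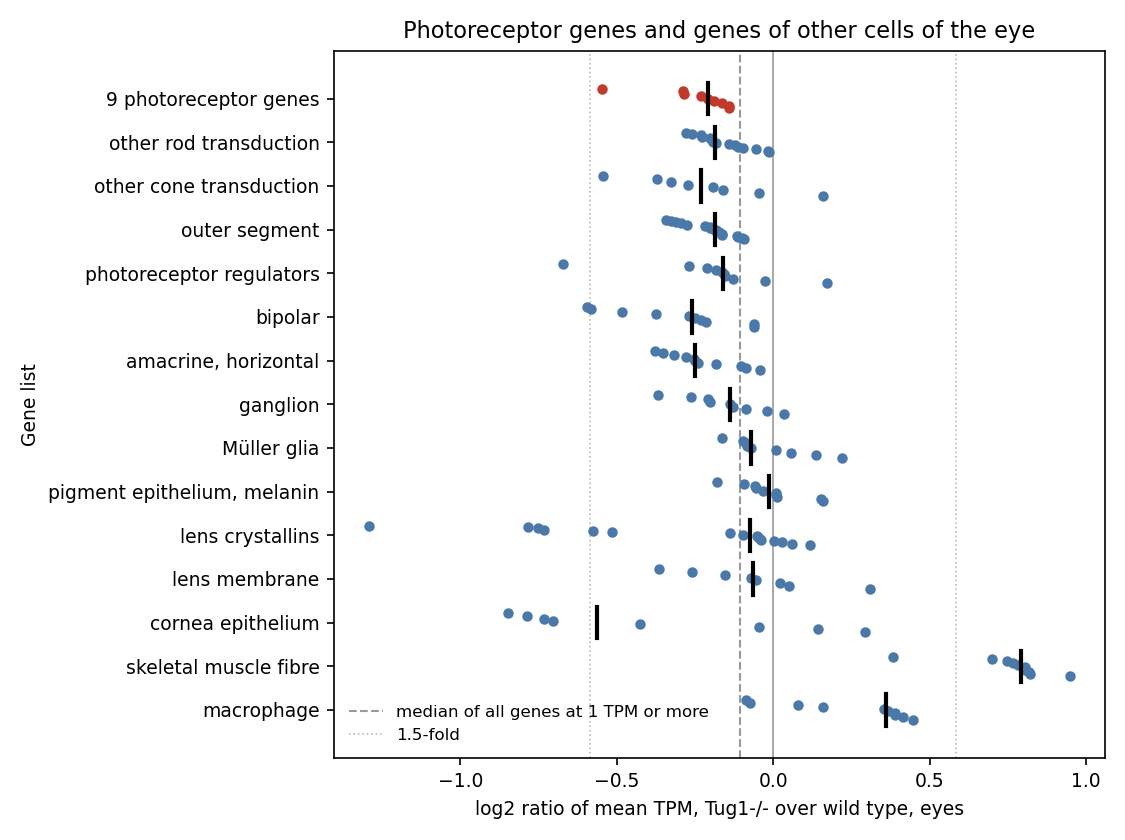
Log2 ratio of mean TPM in eyes (Tug1-/- over wild type) for each gene of 15 lists, with the median of the list as a black bar, the median of all genes as a dashed line and 1.5-fold as dotted lines. The 9 photoreceptor genes (red, median -0.21) lie within the range of medians of the other photoreceptor and retinal neuron lists (-0.26 to -0.14), corneal epithelium lies lower (-0.56) and skeletal muscle fibre genes lie higher (0.79).

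Skeletal muscle fibre, macrophage and corneal epithelium genes had medians further from 0 than the photoreceptor genes, while lens crystallins (-0.07) and lens membrane genes (-0.06) had medians nearer to 0. Skeletal muscle fibre genes, which the eye muscles express, summed to 7008 TPM in wild-type eyes and 12312 TPM in Tug1-/- eyes. Past 1.5-fold higher were 9 of 10, against 3.19% of all genes. The log2 ratios ran from Myh2 (0.38, the exception) to Acta1 (0.95). The others were Actn3, Myh4, Tnni2, Mylpf, Myh13, Tnnt3, Myh1 and Ckm, at 0.70 (Actn3) to 0.82 (Ckm). Macrophage genes had a median of 0.36 with 0 of 10 past 1.5-fold, from Cx3cr1 (-0.09) to Mrc1 (0.45). The 28 mitochondrially encoded genes at 1 TPM or more were all higher and summed to 94314 TPM in wild type against 118315 TPM in Tug1-/-.

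In the opposite direction, corneal epithelium genes summed to 8558 TPM in wild type against 5739 TPM in Tug1-/-. Past 1.5-fold lower were 4 of 8, against 4.68% of all genes: Muc4 (log2 ratio -0.85), Krt12 (-0.79), Aldh3a1 (-0.73) and Krt5 (-0.70). Krt4 was the highest of that list at 0.29. Lens crystallins summed to 63722 TPM and 59842 TPM, and Cryab was highest at 0.12. Past 1.5-fold lower were 4 of 16, against 4.68% of all genes: Cryga (-1.29), Crygd (-0.78), Crygf (-0.75) and Crygb (-0.73). Cryga and Crygf rest on few reads, with means of 23.7 and 56.7 size-adjusted reads per library. Of 8 lens membrane and fibre genes, 0 were past 1.5-fold, and Birc7 had the lowest log2 ratio (-0.37). The pineal gland shares CRX and some photoreceptor genes with the retina; 3 of 5 pineal genes were listed in eyes, at a few TPM, from Aanat (-0.18) to Tph1 (0.78, with 1.17 TPM in wild type against 2.08 TPM in Tug1-/-).

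Since TPM is a share, more transcripts of muscle or mitochondria leave a smaller share for every other gene. With the mitochondrially encoded genes taken out and the rest rescaled to the same total, the median of the 9 members was -0.17 and that of all genes -0.07. With the skeletal muscle fibre genes also taken out, these medians were -0.16 and -0.06. Relative to the 39 genes of bipolar, amacrine, horizontal, ganglion and Müller cells, the median of the 9 was -0.03, with Opn1sw at -0.36, Crx at -0.11, Arr3 at -0.10 and Gnat1 and Opn1mw each at 0.04. Without the Müller glia genes in that reference, the median of the 9 was 0.03, so its sign rests on which retinal genes are the reference. Either centring moves every gene alike, and the median of all genes was then 0.07 with the Müller glia genes and 0.13 without them. The part of the muscle and mitochondrial differences in the lower means of the photoreceptor genes was not tested beyond this. That of the corneal difference was not tested.

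Outside eyes the members were at low levels in both genotypes. Of 63 pairs of a member with 1 of the 7 other tissues, 24 were not listed, 35 were listed with both means under 1 TPM (at most 0.784 TPM), and 4 reached 1 TPM in wild type or Tug1-/-. Crx was listed in eyes and in no other tissue. Each of the other 8 had a wild-type level in eyes that was 152 times (Opn1sw) to 4552 times (Pde6b) that in the next tissue.

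The 4 exceptions were 4 different genes in 4 different tissues. Gnat1 in liver had 47.0 TPM in wild type against 44.1 TPM in Tug1-/-, from a mean of 2467 size-adjusted reads per library, which is 0.478% of its level in wild-type eyes. Its partners in rods were not at such levels in liver, where Sag had 0.0102 TPM in wild type against 0.0136 TPM in Tug1-/- and Pde6b, Rcvrn, Nrl and Crx were not listed. Sag in testes had 3.44 TPM in wild type, 3.81 TPM in Tug1-/- and 2.88 TPM in rescue samples. Opn1sw in prostate had 2.26 TPM in wild type against 2.11 TPM in Tug1-/-; it overlaps Calu, a gene on the opposite strand, by 440 bases.

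Arr3 in brain had 1.31 TPM in wild type against 0.728 TPM in Tug1-/-, from a mean of 12.8 size-adjusted reads per library, so this difference rests on few reads. The highest level of Opn1mw outside eyes was 0.650 TPM in wild-type brain.

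**Figure D4:**
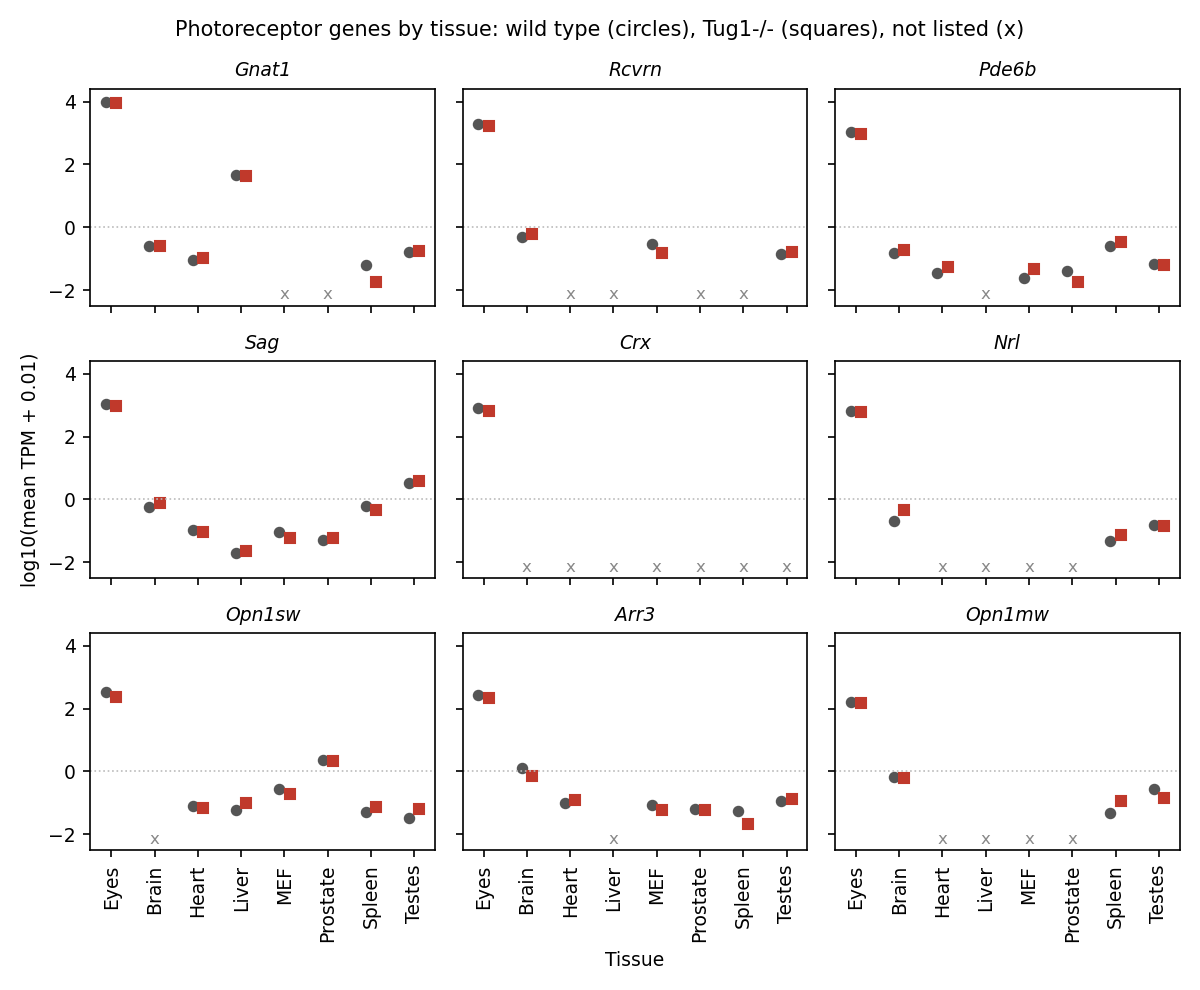
Authors' mean level of each photoreceptor gene, as log10(mean TPM + 0.01), in 8 tissues of wild-type (circles) and Tug1-/- (squares) mice; the dotted line is 1 TPM and an x marks a tissue in which the gene was not listed. Every panel is highest in eyes, and outside eyes only Gnat1 in liver, Sag in testes, Opn1sw in prostate and Arr3 in wild-type brain reach the line.

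The genes outside all lists whose profile over the 14 group means (7 tissues by 2 genotypes) was most like the mean profile of the 9 members were compared as a description. Among 14002 genes with at least 5 TPM in wild-type eyes, the 10 with the highest Pearson r of log2(TPM + 0.1) included Ankrd33 (r = 0.999), Ifi202b (0.998), Cacna1f (0.998), Gpr143 (0.997), Prdm13 (0.996), Csta1 (0.996), BC027072 (0.996), Pitpnm2os2 (0.994) and 4933406J10Rik (0.994). The measure turns almost wholly on a high level in eyes against a level near 0 elsewhere, and 101 genes had r above 0.99. Cacna1f, a calcium channel subunit of the photoreceptor synapse, had 125 TPM in wild-type eyes and 92.6 TPM in Tug1-/- eyes, a log2 ratio of -0.44. Ankrd33, at 258 TPM and 225 TPM, had a log2 ratio of -0.20, close to the median of the members. Prdm13, a factor of amacrine cells, had the lowest ratio of the 10 at -0.58, and Ifi202b (28.6 TPM and 33.4 TPM, log2 ratio 0.22) and Gpr143 of pigment cells (0.05) were the 2 of the 10 with a higher mean in Tug1-/- eyes.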

How the data were processed

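Libraries were made from polyadenylated RNA with the TruSeq RNA kit v2 and sequenced from both ends on a HiSeq. Per the labels and the study's methods, the authors aligned reads with STAR (base calls by CASAVA 1.8.2, build mm10), used featureCounts to count reads with a single mapping position, left out genes with few reads, computed TPM and averaged it per genotype and tissue. The deposited TPM columns of 7 tissues and of testes are such means, and 0 columns of single samples were used. The deposited signal of read depth is the mean read count over all libraries of a tissue after the authors divided it by DESeq2 size factors. Columns of the authors' own comparisons (log2 fold changes, standard errors, statistics, p-values and adjusted p-values) were not used.

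From these, log2 ratios of means (Tug1-/- over wild type, pseudocount 0.1 TPM) were computed in Python 3.11.15 with pandas 2.3.3. Genes whose mean reached 1 TPM in wild type or Tug1-/- were the background, and a ratio past 1.5-fold was called. The script returned the known ratios of simulated means without noise, which checks its arithmetic only. No test was made, since the means carry no spread between samples. The approximate counting interval (95%) split the depth of a gene over both genotypes by TPM. The members and the 15 other gene lists were chosen with earlier results of these data known. Genes were named by rule: all members, listed genes past 1.5-fold, the highest and lowest of each list, the 10 most alike genes, and Tug1. As partners of members, Gnat2 (outside its planned ratio to Gnat1), Pde6a, Pde6g and Gnb1 were added after their values were seen. For likeness, a gene not listed in a tissue counted as 0. Alternatives were other pseudocounts, scalings, folds and minimum levels. Results for a few genes that these rules name are not reported here.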

Additional observations from a re-analysis of the deposited data

How the results depend on the processing

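The median log2 ratio of the 9 photoreceptor genes in eyes, -0.21, was the same to 2 decimals with a pseudocount of 1 TPM and with none, and no member was past 1.5-fold under any scaling, pseudocount or minimum level tried. The median was -0.10 when centred on the median of all genes, -0.17 after rescaling without mitochondrially encoded genes and -0.28 over the 3 cone members alone. Under scalings chosen after seeing the data it was -0.026 when centred on the other retinal genes, 0.026 when these were neuron genes without Müller glia, and -0.16 without mitochondrially encoded and skeletal muscle fibre genes. With a Tug1-/- mean under 80% of the wild-type mean as the limit, 1 member (Opn1sw) passed it. Centring moves every gene by the same amount: on the other retinal genes Gnat1, Nrl and Opn1mw were at 0.04, 0.02 and 0.04, beside a median of all genes of 0.07. Opn1sw was between -0.55 and -0.31 under every scaling. No paired analysis was possible because the levels used are group means with no values of single samples, and for the same reason no sample could be left out in turn. In eyes, counting error was smaller than the size of each member's log2 ratio. Opn1mw, however, was below the median of all genes by less than its counting error. Outside eyes most members rest on a few reads.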
